A study of Rattus norvegicus with 18 samples.

Results

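Neurotrophic factors and axon guidance ligands are secreted proteins that keep neurons alive, steer growing nerve fibres or shape the vessels that run beside them, and 9 genes of this kind were read in cells sorted from the rat knee synovium. They were Bdnf, Ntf3, Gdnf, Artn, Vegfa, Nrg1, Sema3a, Ntn1 and Nrcam. They were picked by name, with earlier results of these data known, from the 30643 genes of each deposited table. Each symbol matched a single gene. Of these, 7 had a mean of at least 10 normalized reads at 4 weeks and entered the test across genes, and 6 did so at 12 weeks. Nrcam is the exception among the names, because it encodes a cell adhesion molecule of the L1 family that sits in the neuronal membrane and acts as a partner for guidance receptors rather than a secreted factor.

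The synovium is the lining of the joint and carries sensory and sympathetic nerve fibres together with a dense capillary bed. Neurotrophins signal through Trk receptors and through the shared receptor Ngfr, while the GDNF family ligands use a GFRα co-receptor and the kinase Ret. Class 3 semaphorins act through neuropilins and plexins, netrins through Dcc, neogenin and the Unc5 receptors, and neuregulins through the ErbB kinases.

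The libraries came from male Sprague Dawley rats operated on at 12 weeks of age. In the OA group the anterior cruciate ligament was cut and the medial meniscus was destabilized, and in the sham group the joint was opened only. Synovial cells were enriched on magnetic beads for CD11b/c, the integrins of monocytes and macrophages. There were 5 OA and 5 sham libraries at 4 weeks after surgery, each a pool of 4 rats, and 4 OA and 4 sham libraries at 12 weeks, each a pool of 3 rats. All groups had surgery, and the sham libraries are the reference used here.

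Reads per library ranged from 4662344 to 18080503, and a floor of 3 reads corresponded to between 2.06 and 6.96 normalized reads at 4 weeks and between 2.27 and 3.82 at 12 weeks. Sham replicate 3 of 4 weeks stood apart: it had the fewest reads, yet reads on 25919 genes, where the other libraries had reads on 21351 to 25187. All 15 myeloid marker genes were detected, but so were markers of other cells, with Vwf, an endothelial gene, between 9320 and 15186 normalized reads at 4 weeks and the fibroblast collagen Col1a1 between 8093 and 25720. No marker of the 12 cell type lists was at 0 in every library. In such mixed samples, fewer cells of a type and less RNA per cell cannot be told apart. Because the normalization was run separately for each time point and gene lengths are not used here, normalized reads were compared between OA and sham within a week, and not between genes.

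Nrcam was the only one of the 9 genes that was called different between OA and sham, in the fit that averaged the OA and sham difference over both weeks. At 4 weeks the OA libraries held 432, 505, 554, 603 and 511 normalized reads of Nrcam, and the sham libraries 308, 296, 260, 305 and 374. The lowest OA library thus exceeded the highest sham library. The OA mean was 521 ± 63.4 and the sham mean 309 ± 41.2 (SD, 5 libraries each), a log2 fold change of 0.75 with a 95% confidence interval of 0.51 to 1.00. By the p-value Nrcam stood at rank 2 of the 14861 genes tested at 4 weeks, but its Benjamini-Hochberg adjusted p in limma was 0.121, short of the threshold of 0.05. The exact permutation test (two-sided) of Nrcam alone gave p = 0.00794, the smallest that 5 against 5 libraries allow. Every gene whose groups do not overlap reaches this p, that is 1.87% of the genes tested at 4 weeks. It is unadjusted, and Nrcam was chosen with earlier results of these data known, so it is not independent support. Without sham replicate 3 the difference was 0.70, with an exact permutation p of 0.0159.

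At 12 weeks the OA libraries held 495, 529, 487 and 479 normalized reads of Nrcam, and the sham libraries 316, 385, 235 and 345. Again the groups did not overlap, and the OA libraries lay close together while sham replicate 3 was the lowest of all. The OA mean was 498 ± 21.9 and the sham mean 320 ± 63.3 (SD, 4 libraries each), and the log2 fold change was 0.66 with a 95% confidence interval of 0.36 to 0.95. The adjusted p in limma was 0.264, at rank 29 of 14666 genes, and the exact permutation test (two-sided) gave p = 0.0286, the smallest that 4 against 4 libraries allow. The same limits hold for this p, which the 6.29% of genes whose groups did not overlap at 12 weeks all reach. Leaving out sham replicate 3 of 12 weeks narrowed the difference to 0.52 and brought the adjusted p in limma to 0.0368, which made Nrcam 1 of 81 genes called, or 0.552% of those tested. DESeq2 called Nrcam at 4 weeks, with an adjusted p of 2.55e-06, and at 12 weeks, with an adjusted p of 0.00284, among the 0.195% and 0.675% of genes that it called, while edgeR gave adjusted p-values of 0.0985 and 0.253.

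**Figure D1:**
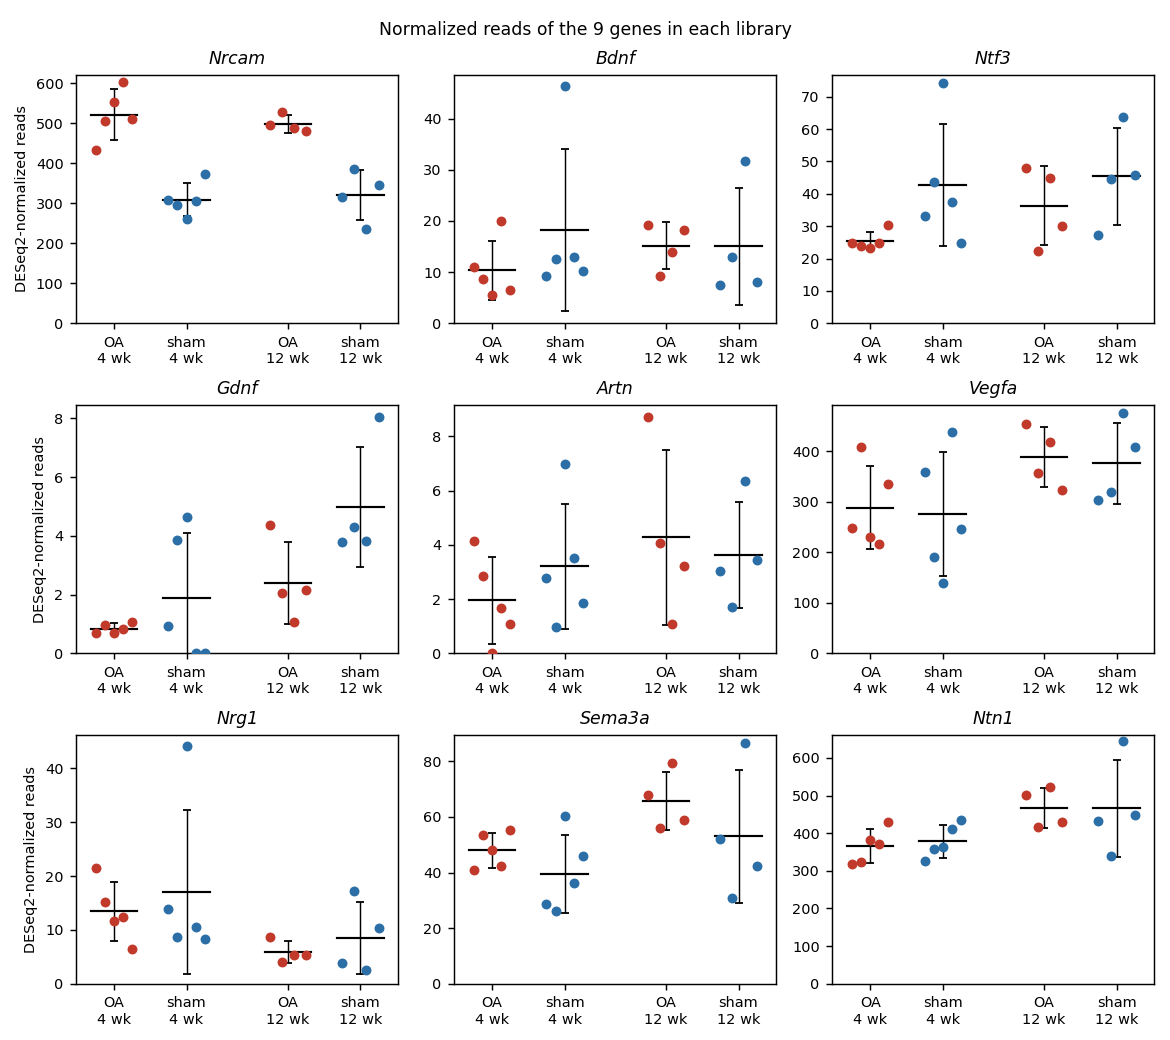
DESeq2-normalized reads (linear vertical axis from 0, one scale per gene) of the 9 genes in each OA (red) and sham (blue) library at 4 and 12 weeks; points are libraries in replicate order, horizontal lines are group means and bars are ± 1 SD, cut at 0. In the Nrcam panel the OA libraries (432 to 603 at 4 weeks, 479 to 529 at 12 weeks) sit above every sham library of the same week, while the groups overlap in each of the other 8 panels.

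When the libraries of both weeks were placed on a common scale (CPM, recovered reads relative to the TMM-scaled library size), the Nrcam level was 43.7 ± 5.28 (SD, n = 5) in OA at 4 weeks and 37.0 ± 1.45 (SD, n = 4) in OA at 12 weeks. In sham it was 26.3 ± 3.03 (SD, n = 5) at 4 weeks and 23.6 ± 4.56 (SD, n = 4) at 12 weeks. The lowest OA library of either week had 36.0 CPM and the highest sham library 31.5 CPM, so the surgery groups were apart across all 18 libraries, whereas within OA and within sham the ranges of the 2 weeks overlapped. The average of the OA and sham differences at the 2 weeks was 0.70 on the log2 scale (SE 0.08), that is 1.62-fold with a 95% confidence interval of 1.43 to 1.83, and Nrcam rose with a limma adjusted p of 0.00155. That was the smallest p-value of the 14420 genes tested, of which 0.409% were called and 0.333% were called higher in OA. This fit used the same libraries as the comparisons within each week and is not independent of them. The difference between weeks was -0.06 for Nrcam (95% confidence interval -0.42 to 0.29, adjusted p in limma 0.978), so a change of the OA effect between 4 and 12 weeks of up to about that interval was not resolved.

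Counts over all genes put the separation of Nrcam beside its background. Groups did not overlap for 1.87% of the genes tested at 4 weeks (1.18% with OA higher) and for 6.29% at 12 weeks (2.85% with OA higher). Groups that did not overlap with OA higher at both weeks were found for 32 genes, or 0.222%, and Nrcam was one of these. Nrcam was called in all 8 other settings of the averaged fit and in all 19 fits that left out libraries, with log2 fold changes between 0.61 and 0.74 in the latter.

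Markers of other cells were read beside Nrcam. The summed normalized reads of 13 fibroblast marker genes ranged from 84509 to 126969 in OA and from 57324 to 127125 in sham at 4 weeks, and from 96800 to 125761 in OA and 69280 to 103517 in sham at 12 weeks. At 12 weeks 10 of these 13 genes had an unadjusted p under 0.05 with higher values in OA in limma, and 2 of 13 did at 4 weeks. Thy1 went the other way, with log2 fold changes of -0.49 at 12 weeks (unadjusted p = 0.0374 in limma) and -0.19 at 4 weeks. Of all genes tested, 5.75% were higher and 6.62% lower in OA at such a p at 12 weeks. At 4 weeks these shares were 4.1% and 3.82%. At 4 weeks sham replicate 4 had the most fibroblast marker reads, with a Nrcam level of 305. At 12 weeks replicate 3 had the most of the sham libraries, with a Nrcam level of 235. That library also had the most endothelial (69097) and the fewest myeloid marker reads (155746) of the 12-week libraries. Summed reads of the 15 myeloid markers overlapped between OA (146559 to 175169) and sham (149454 to 154470) at 4 weeks and between OA (188983 to 227658) and sham (155746 to 217219) at 12 weeks. Their mean sums were higher in OA, at 160347 against 152165 at 4 weeks and 208647 against 184315 at 12 weeks. Of the 15 genes, 13 had higher values in OA at 4 weeks and 14 at 12 weeks. At an unadjusted p under 0.05 in limma there were 0 and 1, the latter higher in OA. The 14 Schwann cell markers found in the tables, from the glia that sheathe peripheral axons, also overlapped at both weeks, with sums of 4190 to 5272 in OA and 3365 to 4751 in sham at 4 weeks. Of the 12 lists, skeletal muscle markers at 12 weeks were the one whose sums did not overlap, at 1955 to 3076 in OA and 1540 to 1708 in sham. Lists whose sums overlapped could still lean to 1 side. Of the chondrocyte markers tested, 4 of 7 were higher in OA at 4 weeks and 7 of 7 at 12 weeks. Lower in OA were 9 of 10 endothelial markers at each week. So were 8 of 9 mast cell markers at 4 weeks and 8 of 8 at 12 weeks, and 5 of 5 and 3 of 3 adipocyte markers. The part of these cell types in the Nrcam result was not tested.

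**Figure D2:**
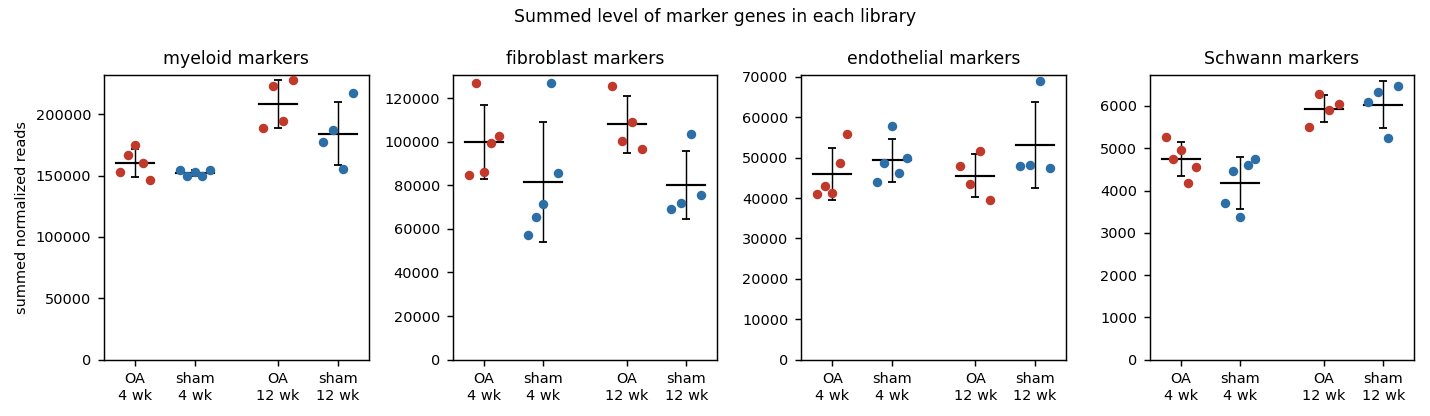
Summed normalized reads (vertical axes from 0) of the marker genes of myeloid cells, fibroblasts, endothelial cells and Schwann cells in each OA (red) and sham (blue) library; points are libraries in replicate order, lines are group means and bars ± 1 SD. The OA and sham libraries overlap in every panel at both weeks, and at 12 weeks the fibroblast sums run from 96800 to 125761 in OA and from 69280 to 103517 in sham.

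The genes whose levels followed Nrcam most closely over the 18 libraries, after each week was centred, were Msr1 (Pearson r = 0.90), a scavenger receptor of macrophages, Snx1 (r = 0.88), a sorting nexin of the endosome, and Ms4a6bl (r = 0.87), a member of a family of similar genes whose reads may be shared. The libraries share the surgery groups and their depth, so these values describe likeness only. Msr1 had log2 fold changes of 0.65 at 4 weeks and 0.50 at 12 weeks, with unadjusted p-values in limma of 0.00044 and 0.00535.

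**Figure D3:**
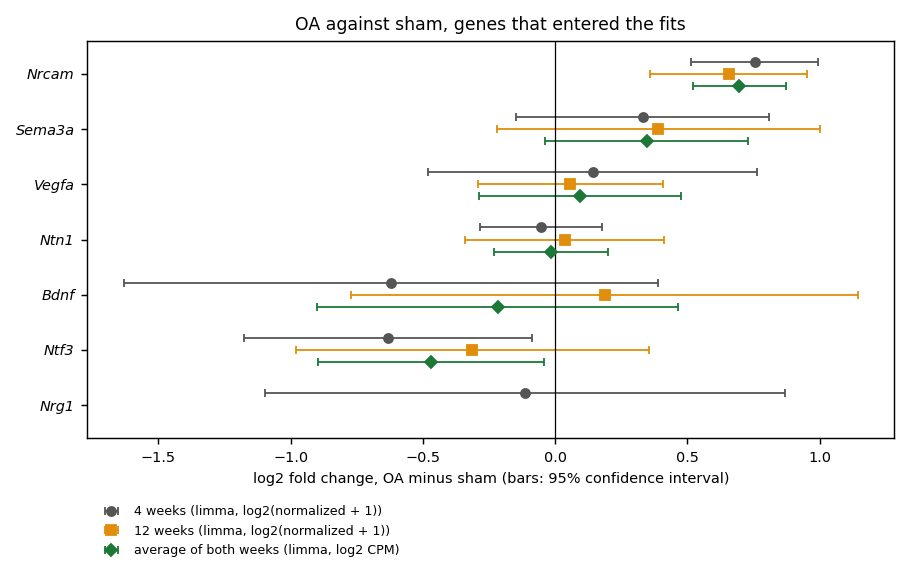
Log2 fold changes of OA over sham with 95% confidence intervals for the genes that entered each fit, at 4 weeks (grey circles), at 12 weeks (orange squares) and averaged over both weeks (green diamonds); the vertical line marks no difference. The 3 intervals of Nrcam lie above 0.36, and those of Ntf3 at 4 weeks and averaged lie below 0, whereas all others cross 0.

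Among the neurotrophins, Bdnf, which binds the receptor Ntrk2, was low and varied more within groups than between them. At 4 weeks its normalized reads were 11.1, 8.58, 5.49, 19.9 and 6.51 in OA and 9.21, 12.6, 46.4, 12.9 and 10.1 in sham. The sham mean of 18.2 ± 15.8 (SD, n = 5) was carried by replicate 3, the library with the fewest reads, and the OA mean was 10.3 ± 5.79 (SD, n = 5). The log2 fold change was -0.62 (95% confidence interval -1.63 to 0.39, adjusted p in limma 0.732), and it shrank to -0.23 without that library. At 12 weeks OA held 19.2, 9.19, 13.9 and 18.2 and sham 7.56, 12.9, 31.8 and 8.04, and sham replicate 3 was again the highest. The means were nearly the same, 15.1 ± 4.58 in OA and 15.1 ± 11.4 in sham (SD, n = 4 each), with a log2 fold change of 0.19 (95% confidence interval -0.77 to 1.14). Over all libraries Bdnf rested on 6 to 25 reads each, so only large differences could have been seen. Its nearest genes were Col7a1, a collagen of anchoring fibrils (r = 0.85), AABR07058976.1 (r = 0.85) and Higd1b (r = 0.82).

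Ntf3, the neurotrophin that prefers the receptor Ntrk3, held 24.96, 23.8, 23.4, 24.9 and 30.4 normalized reads in OA at 4 weeks and 33.2, 43.6, 74.3, 37.5 and 24.9 in sham. Of the sham libraries, 4 were above every OA library and replicate 5 was inside the OA range. The means were 25.5 ± 2.82 in OA and 42.7 ± 18.9 in sham (SD, n = 5 each), and the log2 fold change was -0.63 (95% confidence interval -1.18 to -0.09). Its unadjusted p was 0.0263 and its adjusted p in limma 0.595, while the exact permutation test (two-sided) gave p = 0.0317. Without sham replicate 3 the difference was -0.41 and the exact permutation p was 0.0635. With Nrcam it made 2 of 7 genes at an unadjusted p under 0.05 at 4 weeks, 1 higher and 1 lower in OA, where 7.92% of all genes tested had such a p (4.1% higher and 3.82% lower in OA).

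At 12 weeks Ntf3 held 48.0, 22.5, 45.0 and 30.0 normalized reads in OA and 27.2, 44.7, 63.6 and 46.0 in sham, and the groups overlapped. The log2 fold change was -0.31 (95% confidence interval -0.98 to 0.36, adjusted p in limma 0.679). Only Nrcam of the 6 genes tested had an unadjusted p under 0.05 at 12 weeks, against 12.4% of all genes (5.75% higher and 6.62% lower in OA). Averaged over both weeks Ntf3 differed by -0.47 (95% confidence interval -0.90 to -0.04), with an unadjusted p of 0.0337 and an adjusted p in limma of 0.293. In that fit 15.1% of all genes had an unadjusted p under 0.05 (7.98% higher and 7.12% lower in OA), and Nrcam and Ntf3 were the 2 of 6 described here that did. The genes nearest to Ntf3 were Sgf29 (r = 0.89), Tmem88 (r = 0.89) and Clu (r = 0.86), the extracellular chaperone clusterin.

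The GDNF family ligands were at the limit of detection. Gdnf, the ligand for the Gfra1 and Ret complex, had 1 read in each OA library at 4 weeks and 1, 4, 2, 0 and 0 reads in sham, so 1 of the 10 libraries was above the floor of 3 reads and no fold change is given. At 12 weeks it had 5, 2, 1 and 2 reads in OA and 5, 5, 3 and 7 in sham, that is 2.41 ± 1.39 normalized reads in OA and 4.98 ± 2.05 in sham (SD, n = 4 each). The libraries overlapped and the exact permutation test (two-sided) gave p = 0.114. Artn, the ligand of Gfra3, had 6, 3, 0, 2 and 1 reads in OA and 3, 1, 3, 3 and 2 in sham at 4 weeks. At 12 weeks Artn had 10, 4, 1 and 3 reads in OA and 4, 2, 5 and 3 in sham, with an exact permutation p of 0.886. Neither gene reached the mean that the test across genes required, and a difference between OA and sham was not detectable at this depth.

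Vegfa, the main growth factor of endothelial cells, which also acts on neurons through neuropilin, was well measured at 60 to 521 reads per library. At 4 weeks OA held 249, 410, 231, 217 and 335 normalized reads and sham 360, 192, 139, 440 and 247. The groups overlapped over most of their range, and sham replicate 3 was the lowest. The log2 fold change was 0.14 at 4 weeks (95% confidence interval -0.48 to 0.76, adjusted p in limma 0.895), and -0.07 without that library. At 12 weeks OA held 455, 357, 419 and 323 and sham 303, 319, 476 and 408, with a log2 fold change of 0.06 (95% confidence interval -0.29 to 0.41, adjusted p in limma 0.893). Averaged over both weeks the interval of the difference ran from -0.29 to 0.47, which leaves room for a modest change in either direction. Slc1a4 (r = 0.88), Pkd2 (r = 0.86) and Selenoi (r = 0.86) followed Vegfa most closely.

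Nrg1, the neuregulin that axons present to Schwann cells through ErbB receptors, had 21.5, 15.2, 11.7, 12.5 and 6.51 normalized reads in OA at 4 weeks and 13.8, 8.72, 44.1, 10.5 and 8.29 in sham. Sham replicate 3 was again the highest library. The log2 fold change was -0.11 (95% confidence interval -1.10 to 0.87, adjusted p in limma 0.949), and it turned to 0.29 when that library was left out. At 12 weeks Nrg1 was below the mean required for the test, with 8.73, 4.09, 5.36 and 5.36 normalized reads in OA and 3.78, 17.2, 2.54 and 10.3 in sham, and an exact permutation p of 0.80.

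Sema3a, a repulsive semaphorin for sensory and sympathetic axons, held 40.9, 53.4, 48.1, 42.4 and 55.3 normalized reads in OA at 4 weeks and 28.5, 26.2, 60.3, 36.3 and 46.0 in sham. The sham libraries spanned the OA range, with replicate 3 on top. The means were 48.0 ± 6.41 in OA and 39.5 ± 14.01 in sham (SD, n = 5 each), a log2 fold change of 0.33 (95% confidence interval -0.15 to 0.81, adjusted p in limma 0.700). At 12 weeks OA held 68.1, 56.2, 79.4 and 59.0 and sham 52.1, 30.9, 86.5 and 42.5. Here too sham replicate 3 was above every OA library and the other sham libraries were below them all, and the log2 fold change was 0.39 (95% confidence interval -0.22 to 1.00, adjusted p in limma 0.562).

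The averaged difference of Sema3a was 0.35 (95% confidence interval -0.04 to 0.73, adjusted p in limma 0.392) with all libraries. Leaving out sham replicate 3 of both weeks, a choice made after the values were seen, moved it to 0.57 with an adjusted p in limma of 0.0412, which is a call. At 4 weeks alone, without sham replicate 3, the difference was 0.50 and the exact permutation p was 0.0476. Both of the libraries left out had the highest Sema3a level of their sham group, so this value depends on removing the libraries that went the other way. Among the genes nearest to Sema3a were Fgfrl1 (r = 0.85) and AABR07027575.1 (r = 0.84).

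Ntn1, the secreted guidance cue netrin-1, had differences near 0 with intervals that held 0. At 4 weeks OA held 319, 324, 381, 372 and 429 normalized reads and sham 326, 358, 364, 410 and 435, and at 12 weeks OA held 502, 417, 522 and 429 and sham 431, 339, 645 and 449. The groups overlapped almost completely at both times. The log2 fold changes were -0.05 at 4 weeks (95% confidence interval -0.28 to 0.18, adjusted p in limma 0.893) and 0.04 at 12 weeks (95% confidence interval -0.34 to 0.41, adjusted p in limma 0.937). The averaged difference had an interval of -0.23 to 0.20, so a change in the mean of more than about that size lay outside it. Foxc1, a forkhead transcription factor, followed Ntn1 with r = 0.94, followed by Ehbp1 (r = 0.89) and Cped1 (r = 0.88).

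At 12 weeks sham replicate 3 had the highest level of its group for Bdnf, Ntf3, Vegfa, Sema3a, Ntn1 and Artn and the lowest for Nrg1 and Nrcam. The same library had the most endothelial marker reads (69097, where the other sham libraries had 47323 to 48235) and the fewest myeloid marker reads of all 12-week libraries (155746). The part of its cell make-up in these levels was not tested. The differences between weeks were also tested for the 6 genes that passed the filter at both times, and 0 were called, with adjusted p-values in limma from 0.962 to 0.992 and 0 of 6 at an unadjusted p under 0.05, against 3.0% of all genes. edgeR and DESeq2 called 0 of 6 as well.

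The genes around the 9 were read from 11 lists of ligands, receptors and adhesion molecules, 118 genes in all, of which 114 were in the tables. In limma 0 of 97 tested were called at 4 weeks and 0 of 94 at 12 weeks, and edgeR called 0 of the same genes at both. DESeq2 called 0 at 4 weeks and 1, Sema3c, at 12 weeks, as did edgeR at 12 weeks when every gene with a read was tested. At an unadjusted p under 0.05 there were 12 genes at 4 weeks, 5 higher and 7 lower in OA, or 12.4% of the listed genes tested against 7.92% of all genes. Without sham replicate 3 of 4 weeks there were 7 of 95 listed genes, against 1506 of 14468 over all genes. Without sham replicate 2 of 4 weeks there were 6 of 97, against 972 of 14861. With any other library left out there were 8 to 18 listed genes, so the excess at 4 weeks depended on these libraries. At 12 weeks there were 18, 8 higher and 10 lower, or 19.1% against 12.4%. Averaged over both weeks 19 of 93 had such a p, or 20.4% against 15.1%, limma and edgeR called 0 and DESeq2 called 1, Cntn2. The values that follow are therefore given as measurements, with unadjusted p-values from limma, and with all libraries at equal weight the adjusted p-values in limma lay above 0.05 for every one.

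**Figure D4:**
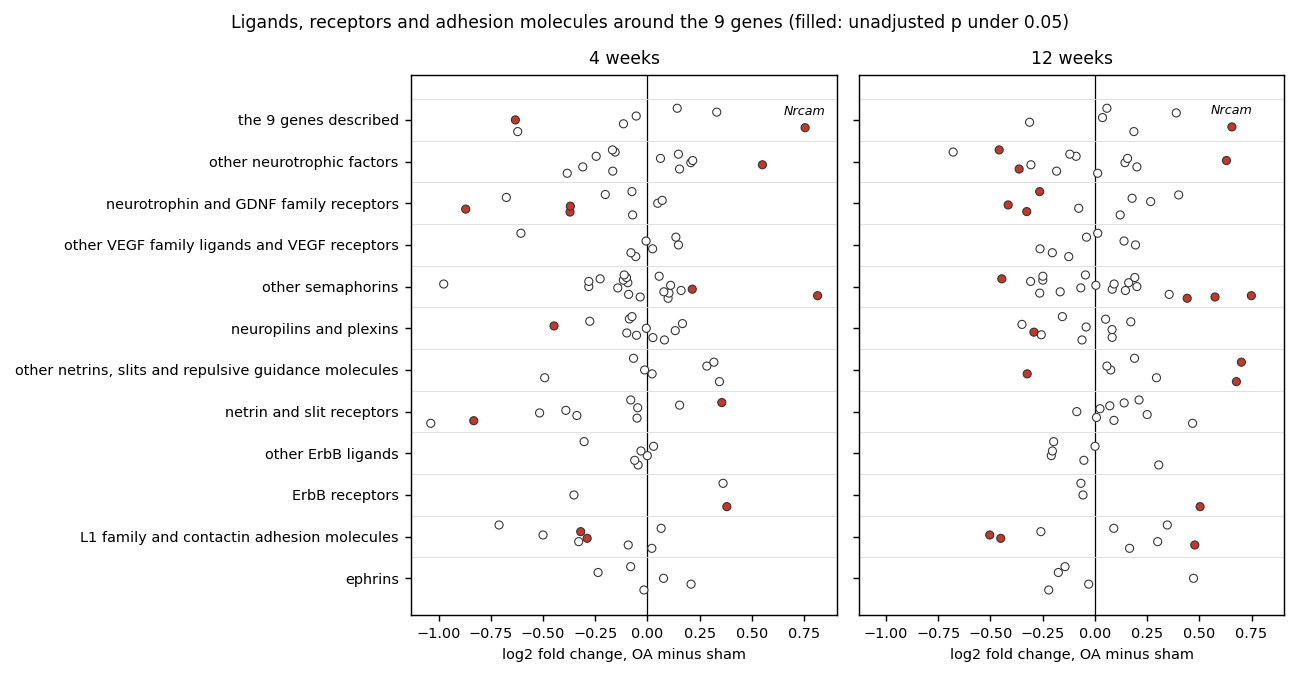
Log2 fold changes of OA over sham (horizontal axis) at 4 weeks and at 12 weeks for each tested gene of the lists named on the left, one point per gene; filled points had an unadjusted p under 0.05 in limma. Filled points lie on both sides of 0 at both weeks, 5 higher and 7 lower at 4 weeks and 8 higher and 10 lower at 12 weeks outside the top row, and Nrcam is the point farthest to the right in the top row.

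Several receptors for the neurotrophins had lower means in OA. Of 9 tested neurotrophin and GDNF family receptors at 4 weeks 3 had an unadjusted p under 0.05, all lower in OA, and so had 3 of 8 at 12 weeks, while the list medians were -0.20 and 0.02 against 0.03 and -0.01 over all genes. Ntrk2, the receptor of Bdnf, had 216 ± 34.6 normalized reads in OA and 281 ± 61.9 in sham at 4 weeks (SD, n = 5 each, unadjusted p = 0.0344 in limma) and 370 ± 69.9 against 498 ± 116 at 12 weeks (SD, n = 4 each, unadjusted p = 0.0466 in limma). Ngfr, the shared low-affinity receptor that Schwann cells also express, had log2 fold changes of -0.37 at 4 weeks and -0.33 at 12 weeks. Sort1, the sorting receptor sortilin, had a log2 fold change of -0.26 at 12 weeks and -0.07 at 4 weeks. Ntrk3, the receptor of Ntf3, had log2 fold changes of 0.05 and 0.27 and Ret of 0.07 and 0.18, with unadjusted p-values in limma of 0.109 or more. Gfra3, the co-receptor of Artn, had a mean of 4.90 to 8.21 normalized reads and was not tested. No gene carried the symbol Gfra1, so this co-receptor of Gdnf could not be read.

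Among the other neurotrophic factors, 1 of 12 tested had an unadjusted p under 0.05 at 4 weeks and 3 of 12 at 12 weeks, 1 higher and 2 lower. Gdf15, a stress-induced cytokine, had 289 ± 65.6 normalized reads in OA and 198 ± 53.2 in sham at 4 weeks, a log2 fold change of 0.55. At 12 weeks its log2 fold change had the other sign, -0.31 (unadjusted p = 0.0704 in limma), and averaged over both weeks it was 0.11. At 12 weeks Lif, a cytokine of the interleukin-6 family, had a log2 fold change of 0.63 (0.22 at 4 weeks) and Ptn, the heparin-binding factor pleiotrophin, one of -0.46. Ptn at 4 weeks had a log2 fold change of -0.17.

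The receptors of Vegfa were covered by many reads. Flt1 had 5491 ± 524 normalized reads in OA and 5696 ± 333 in sham at 4 weeks (SD, n = 5 each), and Nrp1, shared by Vegfa and Sema3a, had 5321 ± 352 and 5025 ± 209. Their log2 fold changes at 4 and 12 weeks were -0.06 and -0.13 for Flt1, 0.02 and -0.26 for Kdr and 0.08 and -0.06 for Nrp1, and each of these 95% confidence intervals held 0. None of 7 tested genes of the VEGF list had an unadjusted p under 0.05 at either week in limma. The lowest p-values of this list belonged to Vegfd, with a log2 fold change of -0.61, and Vegfc, with 0.14, at 4 weeks, and to Kdr and Flt4 at 12 weeks, where Flt4 had -0.20.

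Of the 19 other semaphorins, 2 had an unadjusted p under 0.05 at 4 weeks, both higher in OA, and 4 at 12 weeks, 3 higher and 1 lower. Sema3c, a class 3 relative of Sema3a, held 541 ± 18.9 normalized reads in OA and 365 ± 47.1 in sham at 12 weeks (SD, n = 4 each), a log2 fold change of 0.57 with an adjusted p in limma of 0.253. The OA libraries (520 to 564) were all above the sham libraries (308 to 421), and DESeq2 gave an adjusted p of 0.000237, its one call among the listed genes at that week, while edgeR with every gene with a read gave 0.0407. At 4 weeks Sema3c had a log2 fold change of -0.03. Leaving out sham replicate 3 of 12 weeks, limma called Sema3c (0.59), Sema3b (0.61) and Ntn4 (0.86). Sema3d, of the same class, had log2 fold changes of 0.81 at 4 weeks and 0.75 at 12 weeks with wide spreads, 313 ± 131 against 177 ± 75.2 normalized reads at 4 weeks. Sema4b, a membrane semaphorin, had 0.21 at 4 weeks and 0.08 at 12 weeks, and Sema6b, another, -0.23 and -0.45. Of the plexins, Plxnb1 had -0.45 at 4 weeks and -0.35 at 12 weeks, Plxna2 -0.10 and -0.29, and Plxna1, which carries the Sema3a signal, -0.05 and -0.26.

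Other netrins and slits had no gene of 7 tested at an unadjusted p under 0.05 at 4 weeks in limma, and 3 at 12 weeks, 2 higher and 1 lower. Ntn4, a netrin of basement membranes, had 252 ± 26.3 normalized reads in OA and 162 ± 50.3 in sham at 12 weeks (SD, n = 4 each), a log2 fold change of 0.68, and of 0.34 at 4 weeks. Its averaged difference of 0.50 had an adjusted p in limma of 0.132, and limma called it with sample quality weights (0.53, adjusted p 0.0452) and without sham replicate 4 of 4 weeks (0.59, adjusted p 0.0447). Slit2, a ligand of the Robo receptors, had 0.32 at 4 weeks and 0.70 at 12 weeks, and Rgmb 0.28 and 0.06. Of the receptors for Ntn1, Unc5b had 267 ± 40.1 and 210 ± 45.1 normalized reads at 4 weeks (SD, n = 5 each, log2 fold change 0.36, unadjusted p = 0.0356 in limma) and 0.14 at 12 weeks, and Neo1 had -0.05 and 0.09. Dcc was at 3.81 to 7.63 normalized reads in OA at 4 weeks and 6.44 to 53.4 in sham, with an unadjusted p of 0.079 in limma, and was under the filter at 12 weeks. Dscam, another netrin receptor, had log2 fold changes of -0.83 at 4 weeks and 0.47 at 12 weeks. At 4 weeks it held 16.3 to 32.6 normalized reads in OA and 27.6 to 78.9 in sham. The highest sham values of Dcc and Dscam at 4 weeks came from replicate 3, the library with the fewest reads.

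For Nrg1, the receptor Erbb3 had 2530 ± 299 normalized reads in OA and 2042 ± 604 in sham at 4 weeks (SD, n = 5 each) and 3630 ± 367 against 3836 ± 657 at 12 weeks (SD, n = 4 each), with log2 fold changes of 0.36 and -0.07. Its partner Erbb2 was low, at 26.9 ± 3.93 and 35.2 ± 9.13 normalized reads at 4 weeks, and Erbb4 was under the filter, at 0 to 34.8 normalized reads at 4 weeks. Egfr, the receptor of the epidermal growth factors, had 1395 ± 116 normalized reads in OA and 1000 ± 206 in sham at 12 weeks (SD, n = 4 each), a log2 fold change of 0.50, and 0.38 at 4 weeks, and its averaged difference of 0.43 had an adjusted p in limma of 0.0762. None of the 6 other ErbB ligands tested at each week had an unadjusted p under 0.05 in limma. Of these, Tgfa had -0.30 and Areg -0.04 at 4 weeks, and Areg 0.31 and Hbegf -0.21 at 12 weeks.

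The relatives of Nrcam gave values in both directions. Of 8 tested L1 family, contactin and associated genes, 2 had an unadjusted p under 0.05 at 4 weeks, both lower in OA, and 3 at 12 weeks, 1 higher and 2 lower, and the list medians were -0.30 and 0.13. Cntn1, a contactin that binds L1 family proteins, had 250 ± 27.2 normalized reads in OA and 308 ± 52.6 in sham at 4 weeks (SD, n = 5 each) and 314 ± 58.5 against 427 ± 52.1 at 12 weeks (SD, n = 4 each). Its averaged difference was -0.38 with an adjusted p in limma of 0.0676. Cntn2 had a log2 fold change of -0.50 at both weeks and an averaged difference of -0.51, which limma called without sham replicate 1 of 4 weeks (-0.61, adjusted p 0.0387), and Cntnap1, a protein of the paranodal junction, -0.32 at 4 weeks and -0.26 at 12 weeks. The ephrins, contact-dependent guidance ligands, had 0 of 5 tested genes at an unadjusted p under 0.05 at either week in limma. Efnb1 had -0.24 at 4 weeks and -0.18 at 12 weeks, Efna2 0.21 at 4 weeks and Efna4 0.47 at 12 weeks.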

How the data were processed

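RNA was sequenced from CD11b/c-enriched synovial cells in 18 libraries, grouped by surgery and week from the sample labels. The authors used fastp 0.20.0, aligned to the Rnor_6.0 genome with STAR 2.7.6a, removed duplicates, counted with featureCounts 2.0.0 (the strand setting is not given in the sources used here) and normalized with DESeq2 1.24.0 separately for each week. Each deposited table holds 30643 genes with this normalized signal per library. The deposited tables also hold the authors' own log2 fold changes with errors, Wald statistics (a score), p-values and adjusted p-values, which were not used. In every library 100% of values were whole multiples of 1 read (tolerance 0.01), so each count of reads was recovered from the deposited values. They ranged from 4662344 to 18080503 per library. A floor of 3 reads was used, which covers counting error only. Replicates of a group differed beyond sampling noise (chi-square per degree of freedom 5.84 to 38.8 over 32 pairs). P-values measure the spread between pools of rats.

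OA and sham were compared within each week in limma 3.58.1 (R 4.3.3), with a mean-variance trend, on log2(normalized reads + 1), for genes with a mean of at least 10. Fold changes on this scale understate those of low genes. A gene was called at an absolute log2 fold change of at least 0.5 and a Benjamini-Hochberg adjusted p under 0.05 over all genes tested. The difference between weeks and the average of both weeks were contrasts of 4 group means fitted by limma to log2 CPM (TMM, prior count 2) from recovered reads. Single genes were tested by exact permutation (two-sided, unadjusted). Alternatives were pseudocounts of 0.5 and 5, every gene with a read, a mean of at least 50, TMM, no TMM, a prior count of 0.5, edgeR 4.0.16, DESeq2 1.42.0, a replicate block, sample quality weights and leaving out each library. Fits without sham replicate 3 at 4 weeks in the exact test and at both weeks in the averaged fit, and edgeR with every gene, were added after the data were seen.

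The 9 genes and all lists were chosen with earlier results of these data known. The genes named are the 9, their main receptors, up to 2 genes per list and week with the smallest p, and the 3 genes of mean at least 50 most correlated with each of the 9. Sema3b and the extra weeks of named genes were added after their values were seen. A few results within these rules are left out of the text. In simulated data with 200 changed genes, limma recovered 198 at 4 weeks (14842 genes, 6 false calls), 197 at 12 weeks (14657 genes, 2 false calls) and 200 in the averaged contrast (14368 genes, 8 false calls). Recovery by limma of differences as small as those measured for the 9 genes was not tested. No sequences or coordinates are printed, since the reference tables used here are of another assembly, GRCr8. Python 3.11.15, numpy 2.4.6, pandas 2.3.3, scipy 1.17.1 and matplotlib 3.10.9 were used.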

Additional observations from a re-analysis of the deposited data

Results flagged for a closer look

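In 4 of the 36 groups of 4 or 5 libraries, 1 library was set apart by a gap past Dixon's critical value on the scale of normalized reads, and in 3 of them also on the log2(normalized reads + 1) scale, where chance gives about 1 group in 20. Bdnf stood at 46.4 normalized reads in sham replicate 3 of 4 weeks, the library with the fewest reads, against 9.21 to 12.9 in the other sham libraries of that week. Gdnf stood at 8.04 normalized reads, or 7 reads, in sham replicate 4 of 12 weeks. Ntf3 stood at 30.4 normalized reads in OA replicate 5 of 4 weeks, against 23.4 to 24.96 in the other OA libraries. On the scale of normalized reads alone, Nrg1 stood apart at 44.1 in sham replicate 3 of 4 weeks, against 8.29 to 13.8 in the other sham libraries.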

How the results depend on the processing

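Nrcam was called in every alternative of the averaged fit. Within weeks the number of the 9 genes called was 0 in limma and moved to 1, Nrcam, with DESeq2 at 4 weeks and 1, Nrcam, with DESeq2 at 12 weeks. Leaving out single libraries it ranged from 0 to 1 at 12 weeks, stayed at 0 at 4 weeks and stayed at 1 in the averaged fit. Leaving out sham replicate 3 of both weeks together made it 2, Nrcam and Sema3a. Over all genes limma called 0 at each week, DESeq2 29 at 4 weeks and 99 at 12 weeks, edgeR with every gene with a read 25 at 12 weeks, and limma 81 at 12 weeks without sham replicate 3. The averaged fit called 59 genes, 123 with DESeq2, 139 with sample quality weights, 35 with every gene with a read, 5 to 108 when 1 library was left out and 120 without sham replicate 3 of both weeks. The cause of these differences was not tested.

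Differences near 0 turned sign. With sample quality weights Vegfa was -0.047 and Nrg1 0.38 at 4 weeks, and Bdnf was 0.19 and Ntn1 0.010 in the averaged fit, where Ntn1 was 0.0064 with every gene with a read. When 1 library was left out, the turned values at 4 weeks were -0.072 for Vegfa and 0.29 for Nrg1 without sham replicate 3, and 0.10 for Nrg1 without OA replicate 5 (ranges -0.07 to 0.34 and -0.30 to 0.29). At 12 weeks they were -0.040 and -0.013 for Bdnf, -0.022, -0.038 and -0.014 for Vegfa and -0.019 and -0.10 for Ntn1 (ranges -0.04 to 0.61, -0.04 to 0.18 and -0.10 to 0.21). The difference between weeks of Nrcam turned to 0.030 without sham replicate 2 of 12 weeks (range -0.20 to 0.03). In the averaged fit Ntn1 gave 0.0051, 0.0055, 0.0054, 0.0071, 0.012, 0.00085 and 0.071 with 1 library left out and 0.078 without sham replicate 3 of both weeks, which made Bdnf 0.19 (ranges -0.09 to 0.08 and -0.34 to 0.19). In the exact tests without sham replicate 3 of 4 weeks, Gdnf was 0.075, Vegfa -0.072 and Nrg1 0.29.

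Libraries of a week with the same replicate number are different pools, and their deviations correlated by -0.13 to 0.08 at 4 weeks and -0.03 to 0.30 at 12 weeks. The main fits used no pairing, and whether libraries of the same number shared a batch was not tested. With a replicate block in limma, the adjusted p of Nrcam was 0.243 at 4 weeks, 0.0892 at 12 weeks and 0.0069 in the averaged fit, and the block changed no call among the 9 genes. Over all genes, the number at an unadjusted p under 0.05 in limma went from 1177 to 1036 at 4 weeks. At 12 weeks it went from 1814 to 2185. Depth limited Gdnf, Artn and Nrg1, which had 0 to 31 reads per library.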
